A study of Homo sapiens with 5 samples.

Results

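Chemokines are small secreted proteins that guide leukocytes, and 10 chemokine genes known from epithelia were followed here in mammary epithelial cells in which JUN was raised. They were found by Entrez identifier and gene symbol, and all 10 were among the 23459 genes of the count table. The question was how their mRNA levels compared between cells given the guide sgJUN#1 and control cells given a non-targeting guide (NTC). All cells were MCF10A SAM cells, an immortalised human breast epithelial line with a Synergistic Activation Mediator: dCas9 joined to the activator VP64, and MCP-p65-HSF1. The guide sgJUN#1 leads this activator to the promoter of JUN, whereas the control guide has no target. The SAM cells were picked as single clones, so both groups descend from selected cells, and all were grown with horse serum, insulin, hydrocortisone, cholera toxin and EGF. The libraries were 3' mRNA libraries, 3 for NTC and 2 for sgJUN#1. The study calls its replicates biological but gives fewer of them for this comparison than there are NTC libraries, and which libraries it used is not given in the sources used here. The labels name no separate cultures, so p-values measure the spread between these libraries, which may be technical in part.

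The genes fall into classes by receptor. CXCL1, CXCL2, CXCL3, CXCL5, CXCL6 and CXCL8 (interleukin-8) belong to the CXC ligands with a Glu-Leu-Arg motif, which bind CXCR1 and CXCR2 and attract neutrophils, and all of them lie in one cluster on the long arm of chromosome 4. CCL20 attracts CCR6-positive dendritic and T cells, CCL2 attracts monocytes through CCR2, CXCL16 is made as a membrane protein that binds CXCR6, and CXCL14 is made by many resting epithelia. CXCL8 is a textbook gene at which AP-1, the dimer that contains JUN, acts beside NF-kB and C/EBP.

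Promoter sequences are shown because members of the cluster stood together in the counts and because AP-1 and NF-kB motifs are the elements named most often for these genes. RefSeq promoter windows (GRCh38.p14, 300 bases, 250 of them before the start site) were found for 8 of the 10 genes, and CXCL16 and CCL2 had no entry. Each stretch below runs from 200 bases before to 20 bases after the first transcribed base, 5' to 3' on the gene's own strand. Capitals mark the AP-1 motif TGACTCA on either strand and the 9-base kB core GGAATTTCC on either strand.
CXCL8 (chr4:73740369-73740588, plus strand): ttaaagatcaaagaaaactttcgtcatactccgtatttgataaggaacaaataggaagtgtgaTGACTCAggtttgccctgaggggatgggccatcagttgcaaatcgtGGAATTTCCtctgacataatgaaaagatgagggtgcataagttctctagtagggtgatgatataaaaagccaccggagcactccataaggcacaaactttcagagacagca
CXCL1 (chr4:73869193-73869412, plus strand): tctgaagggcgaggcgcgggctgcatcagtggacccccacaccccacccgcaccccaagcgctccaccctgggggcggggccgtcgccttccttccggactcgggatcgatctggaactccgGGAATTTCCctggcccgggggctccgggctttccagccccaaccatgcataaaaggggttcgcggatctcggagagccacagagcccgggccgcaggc
CXCL2 (chr4:74099176-74099395, minus strand): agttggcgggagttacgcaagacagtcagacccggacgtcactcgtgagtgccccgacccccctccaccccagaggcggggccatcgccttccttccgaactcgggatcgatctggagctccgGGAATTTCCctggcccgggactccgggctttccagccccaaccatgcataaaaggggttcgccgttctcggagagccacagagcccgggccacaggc
CXCL3 (chr4:74038670-74038889, minus strand): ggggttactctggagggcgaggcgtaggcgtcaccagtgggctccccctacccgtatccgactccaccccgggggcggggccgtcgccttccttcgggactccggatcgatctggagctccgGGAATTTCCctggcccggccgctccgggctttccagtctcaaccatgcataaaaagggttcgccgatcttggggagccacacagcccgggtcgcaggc
CXCL6 (chr4:73836478-73836697, plus strand): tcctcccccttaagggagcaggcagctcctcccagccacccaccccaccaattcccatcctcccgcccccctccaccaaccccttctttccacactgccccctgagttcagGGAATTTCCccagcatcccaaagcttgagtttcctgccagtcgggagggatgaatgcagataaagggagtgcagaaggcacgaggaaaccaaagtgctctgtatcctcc
CCL20 (chr2:227813642-227813861, plus strand): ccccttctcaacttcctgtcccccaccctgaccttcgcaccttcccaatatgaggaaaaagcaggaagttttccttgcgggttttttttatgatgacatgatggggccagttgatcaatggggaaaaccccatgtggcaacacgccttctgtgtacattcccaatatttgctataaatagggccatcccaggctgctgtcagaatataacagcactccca
CXCL14 (chr5:135578972-135579191, minus strand): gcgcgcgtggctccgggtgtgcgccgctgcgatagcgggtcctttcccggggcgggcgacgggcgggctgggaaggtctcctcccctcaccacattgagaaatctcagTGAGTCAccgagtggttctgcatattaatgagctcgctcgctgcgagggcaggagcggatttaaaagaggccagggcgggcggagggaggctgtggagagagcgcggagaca

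The AP-1 letters TGACTCA, or TGAGTCA on the other strand, were found in the windows of CXCL8 and CXCL14, and in 4.92% of all 27305 promoters of that length. In CXCL8 the match lay at bases -137 to -131 from the start site, and in CXCL14 at bases -92 to -86 on the opposite strand. The core GGAATTTCC was found in CXCL1, CXCL2, CXCL3, CXCL5, CXCL6 and CXCL8, at distances between -91 and -69, and in 0.472% of all promoters. In CXCL1, CXCL2, CXCL3, CXCL5 and CXCL6 the core overlapped a match to the longer NF-kB motif, and in CXCL8 it did not. CCL20 held the longer NF-kB motif without that core, at bases -79 to -70 on the opposite strand. This longer motif was in 10.8% of all promoters. A C/EBP motif, TTGCNNAA, was found only in CXCL2 among the 8 windows, against 10.6% of all promoters, and TATAAA in CXCL8 and CCL20, against 11.95%. Among the 10867 promoters of tested genes, the AP-1 letters were in 3.03%, the kB core in 0.405% and the longer NF-kB motif in 12.8%. The C/EBP motif was in 7.1% of these and TATAAA in 5.96%. The windows of CXCL1 and CXCL3 were 82.5% identical and those of CXCL5 and CXCL6 83.1%, while that of CXCL8 shared 38.4% with CXCL1 and 44.1% with CCL20, its nearest match. A match describes the letters of a window and not the binding of a factor. The search took exact letters only, so a window without a match, as CXCL8 for C/EBP, may still hold a related site.

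The libraries held between 2455627 and 4988062 counts. Levels are given as CPM, with library sizes scaled by TMM. A gene without a count could still be present at up to 3 counts, the floor used here, which was 0.617 CPM in the deepest and 1.22 CPM in the shallowest library (counting error only). JUN itself measured 24.9, 36.1 and 9.28 CPM in NTC replicates 1 to 3 against 170.9 and 264.5 CPM in sgJUN#1, so the targeted gene followed the labels, although its log2 fold change of 3.25 missed the threshold (SE 0.484, adjusted p-value 0.0735 by edgeR). Of the markers of mammary epithelium, 9 of 9 were tested, with KRT5 at 151.1 to 452.5 CPM and CDH1 at 29.6 to 102.8 CPM. Others were low, with KRT14 at 0.822 to 3.24 CPM, TP63 at 3.08 to 7.48 CPM and KRT17 at 0 to 16.2 CPM. Of the 9, EPCAM and KRT17 were higher in both sgJUN#1 libraries (log2 fold changes 2.44 and 1.80, adjusted p-values 0.209 and 0.629 by edgeR). ITGB4, a hemidesmosome integrin, and KRT14 were lower in both (-2.55 and -1.16, adjusted p-values 0.459 and 0.659 by edgeR). The summed level of the 9 markers was 312.3 to 908.1 CPM in NTC and 345.0 to 623.0 CPM in sgJUN#1. Of 11 leukocyte markers 3 were tested. PTPRC, the pan-leukocyte antigen, had at most 10 counts in any library, and CD163 at most 2. The summed leukocyte level was 235.1 to 251.5 CPM in NTC and 228.1 to 251.7 CPM in sgJUN#1, of which CSF1R made 203.3 CPM or more, and S100A12 and CD3E had no count. CD68, a lysosomal protein abundant in macrophages, measured 6.30, 8.11 and 3.09 CPM in NTC against 11.3 and 16.04 CPM in sgJUN#1 (log2 fold change 1.26, adjusted p-value 0.417 by edgeR). CD14, another tested leukocyte marker, went the other way with overlapping groups (log2 fold change -1.12, adjusted p-value 0.773 by edgeR). It measured 7.95, 1.62 and 23.6 CPM in NTC against 6.17 and 4.28 CPM in sgJUN#1. CSF1R had a log2 fold change of -0.03. The sums of 7 fibroblast markers, of which 2 were tested, were 189.9 to 298.9 CPM in NTC and 179.3 to 217.1 CPM in sgJUN#1, mostly PDGFRA, and those of 6 endothelial markers, of which 2 were tested, 20.6 to 28.5 CPM and 19.9 to 20.7 CPM. In bulk RNA, fewer cells that make a chemokine and less chemokine mRNA per cell cannot be told apart.

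The chemokines whose sgJUN#1 values both exceeded every NTC value were CXCL1, CXCL2, CXCL3 and CXCL8, the 4 expressed neutrophil attractants of the cluster. Their log2 fold changes ran from 1.96 to 2.99, while single NTC libraries differed from each other by up to 18.9-fold. CCL20, CXCL16 and CXCL14 differed less, and CXCL5, CXCL6 and CCL2 had no count in any library. The edgeR quasi-likelihood test, adjusted by Benjamini-Hochberg over all tested genes, called 0 of the 7 members that passed the expression filter, against 28 of 13616 genes (0.206%). At an unadjusted p-value under 0.05, 3 members (CXCL2, CXCL3 and CXCL8) were higher, against 4.01% of tested genes. DESeq2 and limma-voom also called 0 members, against 0.473% and 0.0588% of genes called higher. The 4 members whose groups were apart in the upward direction stand against 12.2% of tested genes.

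**Figure D1:**
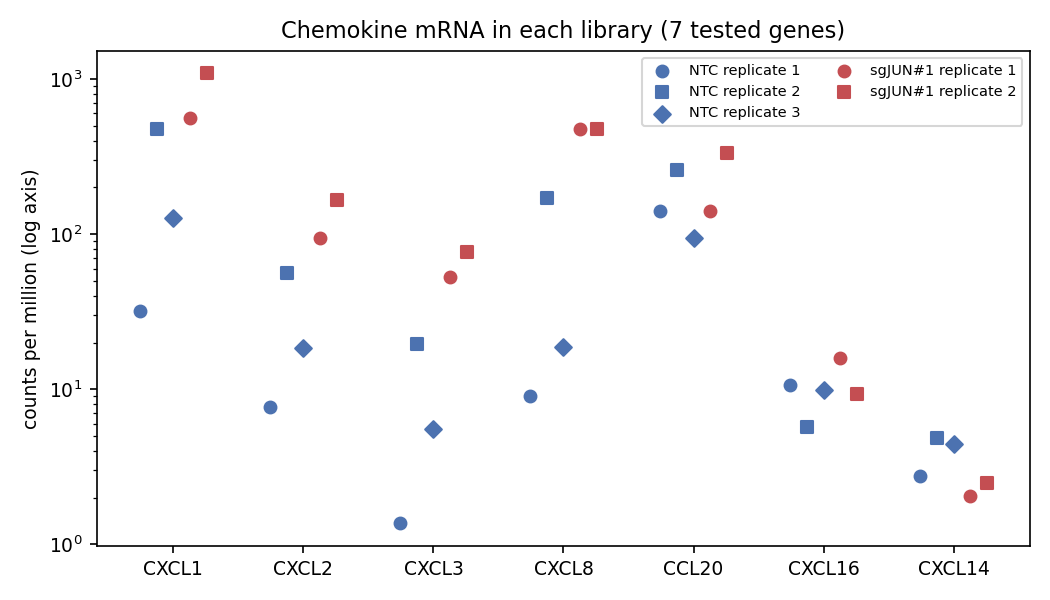
Level of the 7 tested chemokine mRNAs in each library, in CPM on a log axis, with NTC in blue, sgJUN#1 in red and one symbol per replicate number. For CXCL8 both sgJUN#1 points lie near 477 to 479 CPM, above all NTC points, which spread from 9.04 to 171.2 CPM.

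CXCL8 (Entrez 3576, GRCh37 chromosome 4, 74606236 to 74609433, plus strand) is the principal neutrophil attractant of human epithelia. It had 33, 422 and 85 counts in NTC replicates 1, 2 and 3 and 2330 and 1338 counts in sgJUN#1 replicates 1 and 2. As CPM these were 9.04, 171.2 and 18.8 in NTC and 479.1 and 476.9 in sgJUN#1. The sgJUN#1 libraries were nearly level with each other and 2.79 times the highest NTC library. The log2 fold change was 2.89 (SE 1.12), and the adjusted p-value by edgeR was 0.575. Of 10118 tested genes with an NTC mean of at least 10 CPM, 2, CXCL8 among them, had a ratio of the highest to the lowest NTC library as large as that of CXCL8. The median of that ratio over those genes was 1.42.

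CXCL3 (Entrez 2921, chromosome 4, 74902306 to 74904524, minus strand) is a CXCR2 ligand. It had 5, 48 and 25 counts in NTC and 256 and 216 in sgJUN#1. Its levels were 1.37, 19.5 and 5.52 CPM in NTC against 52.6 and 76.99 CPM in sgJUN#1. The lower sgJUN#1 library was 2.70 times the highest NTC library. Its log2 fold change, 2.99 (SE 0.786), was the highest of the 7, and the edgeR adjusted p-value was 0.361.

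CXCL2 (Entrez 2920, chromosome 4, 74962757 to 74964913, minus strand), a CXCR2 ligand released early in inflammation, measured 7.67, 55.97 and 18.3 CPM in NTC against 93.8 and 165.7 CPM in sgJUN#1. The groups did not overlap, and the log2 fold change was 2.29 (SE 0.737, adjusted p-value 0.480 by edgeR).

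CXCL1 (Entrez 2919, chromosome 4, 74735110 to 74737025, plus strand), first described as a melanoma growth-stimulating activity, measured 31.8, 479.0 and 127.3 CPM in NTC against 560.1 and 1088 CPM in sgJUN#1. Here NTC replicate 2 came close to sgJUN#1 replicate 1, which was 1.17 times as high. The log2 fold change was 1.96 (SE 0.982, adjusted p-value 0.670 by edgeR). In an exact two-sided permutation test of the CPM values, CXCL2, CXCL3 and CXCL8 gave p = 0.1, below which 3 against 2 values cannot go, and CXCL1 gave p = 0.2. In the last 500 bases of the transcripts, 10.2% of all windows of 50 bases were shared exactly between CXCL1 and CXCL2 (3 of 426 windows of 75 bases), so some reads could be placed in the wrong one of these 2 genes, whereas CXCL3 and CXCL8 shared no such window with another member.

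Of the single libraries, NTC replicate 2 moved the fitted size of these differences most when left out. Leaving out another single library gave log2 fold changes by edgeR of 2.35 to 2.89 for CXCL8 and 2.45 to 3.24 for CXCL3. For CXCL1 these were 1.41 to 2.36, and for CXCL2 1.83 to 2.64. With all 5 libraries, limma-voom gave 4.11 for CXCL8, 3.68 for CXCL3, 2.65 for CXCL1 and 2.73 for CXCL2. NTC replicate 2 was the highest NTC library for all 4 of these genes, 7.30 to 18.9 times NTC replicate 1. It also had the highest JUN level of the NTC libraries, 36.1 CPM against 24.9 CPM in replicate 1 and 9.28 CPM in replicate 3. NTC replicate 3, the lowest in JUN, still had 2.08 to 4.03 times the level of replicate 1 for these 4 genes. Without NTC replicate 2 the log2 fold changes were 5.08 for CXCL8 (SE 0.381), 4.16 for CXCL3 (SE 0.501), 3.36 for CXCL1 (SE 0.605) and 3.29 for CXCL2 (SE 0.441). CXCL8, CXCL3 and CXCL2 then passed, at adjusted p-values by edgeR of 0.00149, 0.0128 and 0.0203, and CXCL1 did not (0.0686). These 3 calls stand against 33 higher calls among 13575 tested genes (0.243%) in the same fit. NTC replicate 2 was singled out for its high values of these same genes. Leaving it out was therefore bound to raise their fold changes, and the passes without it are not separate support. NTC replicate 2 was also the library with the lowest depth and had 7.30 CPM of EPCAM, an epithelial adhesion molecule, against 23.6 and 23.2 CPM in NTC replicates 1 and 3 and 143.3 and 56.3 CPM in sgJUN#1. Of the sgJUN#1 libraries, replicate 2 likewise had the lower depth (2766254 against 4988062 counts) and the lower EPCAM level. It also had the higher CXCL1, CXCL2 and CXCL3 levels, whereas CXCL8 was nearly level. The part of depth and of the EPCAM difference in the chemokine values was not tested.

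**Figure D2:**
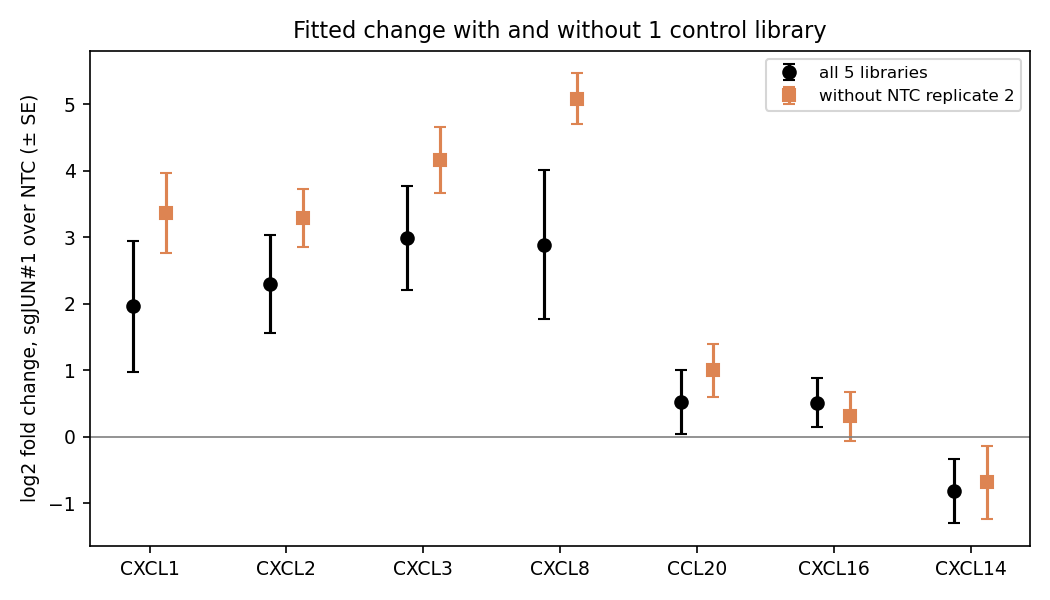
Log2 fold change of sgJUN#1 over NTC for the 7 tested chemokines, fitted by edgeR with all 5 libraries (black) and without NTC replicate 2 (orange), with bars for the standard error. CXCL8 moves from 2.89 to 5.08 and its error shrinks from 1.12 to 0.381, while CXCL16 and CXCL14 stay within 1 log2 unit of 0.

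Within the sum of CXCL1, CXCL2, CXCL3 and CXCL8, the makeup differed between libraries as well. The 4 genes together had 182, 1789 and 769 counts in NTC and 5766 and 5072 in sgJUN#1, or 49.9, 725.6 and 169.9 CPM against 1186 and 1808 CPM. CXCL8 made up 18.1% of these counts in NTC replicate 1 (95% exact binomial interval 12.8 to 24.5%), 23.6% in replicate 2 (21.6 to 25.6%) and 11.1% in replicate 3 (8.93 to 13.5%). In sgJUN#1 it made up 40.4% (39.1 to 41.7%) and 26.4% (25.2 to 27.6%). The CXCL8 share was thus higher in sgJUN#1 than in NTC in every library, although the intervals of NTC replicate 2 and sgJUN#1 replicate 2 overlapped. CXCL1 made up 63.7%, 66.0% and 74.9% in NTC and 47.2% and 60.2% in sgJUN#1. CXCL3 was the smallest part throughout, at 2.68% to 3.25% in NTC and 4.44% and 4.26% in sgJUN#1. The intervals cover counting error only.

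**Figure D3:**
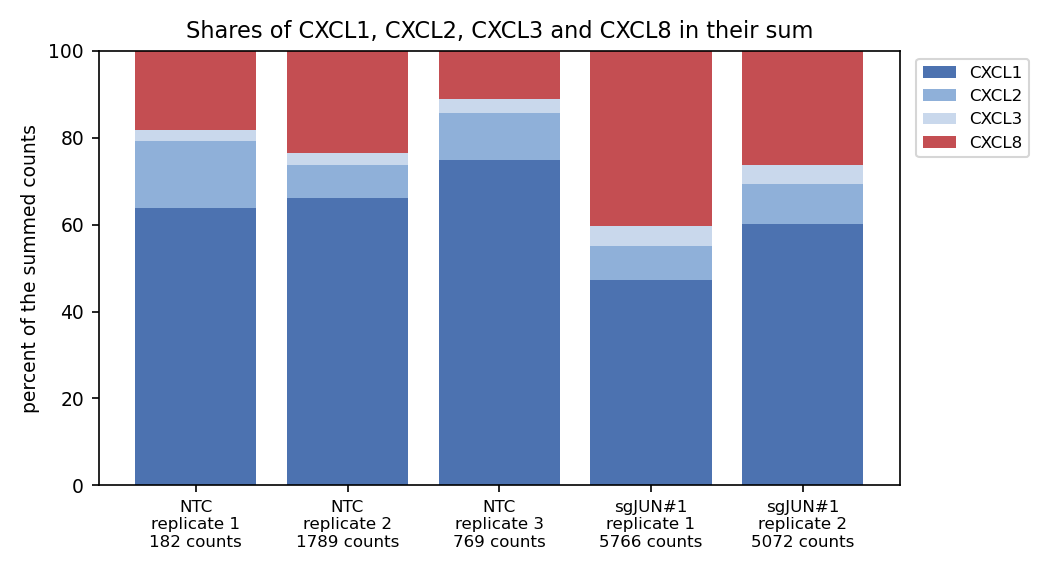
Share of CXCL1, CXCL2, CXCL3 and CXCL8 in their summed counts, in percent, for each of the 5 libraries, with the summed count under each bar. CXCL8 takes 11.1% to 23.6% of the sum in NTC and 26.4% to 40.4% in sgJUN#1.

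The pattern of CXCL8 over the 5 libraries was compared with that of every other tested gene, by the root mean square difference of log2 CPM after each gene was centred on its own mean. The nearest of the 13616 tested genes was CXCL3, at 0.55 log2 units. Next came IL1B, the cytokine interleukin-1 beta, at 0.71, BDKRB1, a receptor for kinin peptides, at 0.79, CXCL1 at 0.81 and KCNJ15, a potassium channel subunit, at 0.83. IL1B measured 14.8, 88.8 and 9.06 CPM in NTC against 191.8 and 378.2 CPM in sgJUN#1 (log2 fold change 2.97, SE 0.940, adjusted p-value 0.468 by edgeR). BDKRB1 was near the floor in NTC replicates 1 and 3, with 0.822, 4.87 and 0.663 CPM in NTC against 15.4 and 27.1 CPM in sgJUN#1. In KCNJ15, as in CXCL1, NTC replicate 2 came close to sgJUN#1 replicate 1, at 26.8 and 27.3 CPM. CXCL2 ranked 6 at 0.88 and JUN ranked 14 at 1.22. CCL20 ranked 449 at 2.002, CXCL16 ranked 7064 at 2.38 and CXCL14 ranked 11453 at 2.54. CXCL1, CXCL2 and CXCL3, the 3 other expressed members in the cluster, were thus among the 6 nearest genes of the table. The remaining expressed members were not, and neither was PF4, a tested gene of the cluster outside the set.

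CCL20 (Entrez 6364, chromosome 2, 228670455 to 228682280) measured 140.6, 257.6 and 94.1 CPM in NTC against 140.8 and 330.8 CPM in sgJUN#1. The groups overlapped, with sgJUN#1 replicate 1 level with NTC replicate 1. The log2 fold change was 0.53 (SE 0.477, adjusted p-value 0.813 by edgeR). NTC replicate 2 again had the highest NTC value, 1.83 times that of replicate 1. The direction rested on a single library, since the log2 fold change was -0.21 without sgJUN#1 replicate 2.

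CXCL16 (Entrez 58191, chromosome 17, 4636828 to 4643223) measured 10.7, 5.68 and 9.94 CPM in NTC against 15.8 and 9.27 CPM in sgJUN#1, and the groups overlapped. It was the only one of the 7 for which NTC replicate 2 was the lowest NTC library. The log2 fold change was 0.51 (SE 0.365, adjusted p-value 0.757 by edgeR). Its values rest on 14 to 77 counts, and MED11 and ZMYND15 overlap it on the opposite strand, so that their reads cannot be told apart if counting did not use strand.

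CXCL14 (Entrez 9547, chromosome 5, 134906369 to 134914969) was close to the floor, with 10, 12 and 20 counts in NTC and 10 and 7 in sgJUN#1. Its levels were 2.74, 4.87 and 4.42 CPM in NTC against 2.06 and 2.49 CPM in sgJUN#1, so that CXCL14 was the only member below NTC in each sgJUN#1 library, as in 12.8% of tested genes. The log2 fold change was -0.82 (SE 0.483, adjusted p-value 0.703 by edgeR). SLC25A48 overlaps CXCL14 on the opposite strand, with the same limit as for CXCL16. CXCL14 and CXCL8, the 2 genes with AP-1 letters in their promoter windows, had fitted changes of opposite sign, and edgeR called neither. The part of these letters in the counts was not tested. CXCL5 and CXCL6, whose windows hold the same kB core as CXCL1 to CXCL3, and CCL2 had 0 counts in 5 of 5 libraries, which allows a level of up to 1.22 CPM in the shallowest of them.

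The chemokine cluster was then placed among its neighbours. From CXCL8 to CXCL2 it spans 358.7 kb of chromosome 4 (GRCh37, 74606236 to 74964913), and 23 genes of the table lie in it or within 1000 kb of it. Of the 17 that are not in the set, 9 were tested. Their median log2 fold change was 0.80, beside -0.01 for all tested genes, with a range from -0.15 to 2.16. The edgeR test called 0 of the 9, with 5 at an unadjusted p-value under 0.05, each of them higher (4.01% of all tested genes were). Limma-voom called 0, whereas DESeq2 called MTHFD2L (0.473% of all genes were called higher). Inside the cluster PF4, platelet factor 4, had 5, 11 and 7 counts in NTC and 25 and 45 in sgJUN#1, with a log2 fold change of 2.16 (SE 0.630, adjusted p-value 0.347 by edgeR). PPBP, which encodes another platelet chemokine, had no count in NTC and 2 in each sgJUN#1 library, at or under the floor.

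Further neighbours are named after their values were seen. MTHFD2L, a folate enzyme gene that starts 15.0 kb beyond CXCL2, measured 143.3, 164.7 and 183.6 CPM in NTC against 240.8 and 413.1 CPM in sgJUN#1, with a log2 fold change of 0.99 (SE 0.250, adjusted p-value 0.247 by edgeR). Beyond it lie the EGF-family ligands EPGN, EREG and AREG, with log2 fold changes of 0.77, 0.80 and 0.82 and edgeR adjusted p-values of 0.459, 0.496 and 0.551. The groups of AREG overlapped, with 1813.5 CPM in NTC replicate 2 against 1698 CPM in sgJUN#1 replicate 1. Those of EREG were narrowly apart, at 91.3 CPM against 97.0 CPM in the same libraries, and those of EPGN were apart. BTC, the EGF-family gene farthest from the cluster, had a log2 fold change of 0.21 with overlapping groups. On the far side of CXCL8, RASSF6, which encodes a RAS-association domain protein, had a log2 fold change of 0.998 (SE 0.467, adjusted p-value 0.620 by edgeR) with overlapping groups, and ANKRD17 and COX18, farther out, had -0.15 and 0.02. Without single libraries the median of the 9 genes ran from 0.51 to 0.94, lowest without sgJUN#1 replicate 2.

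**Figure D4:**
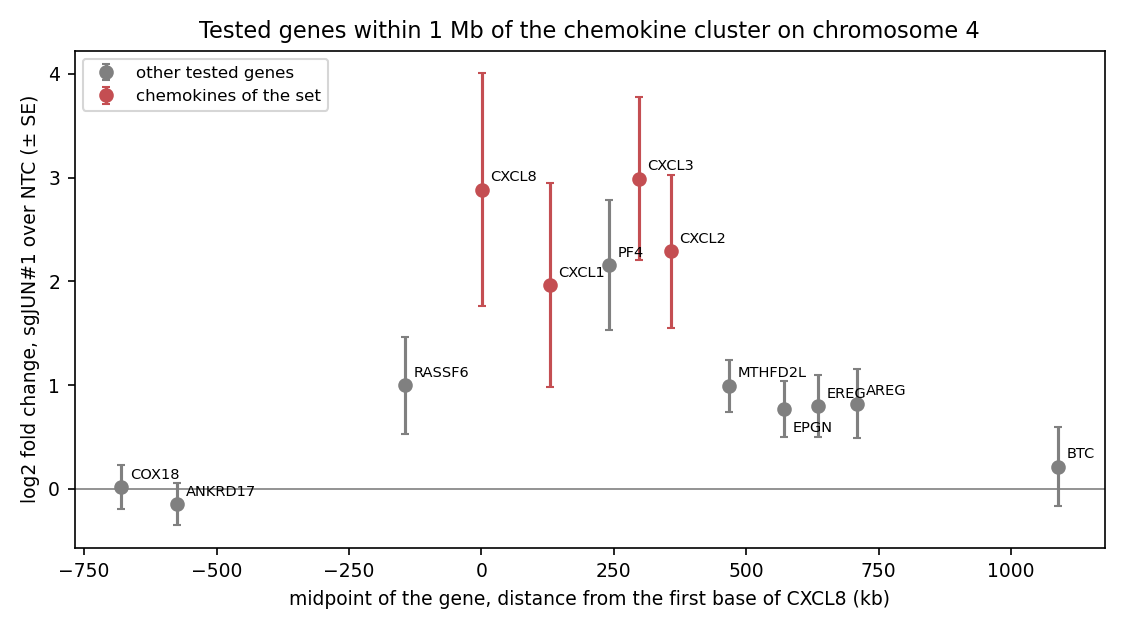
Log2 fold change of sgJUN#1 over NTC, with its standard error, for each tested gene in or within 1000 kb of the chemokine cluster, against the distance of the gene's midpoint from the first base of CXCL8 in kb. The 4 chemokines of the set (red) and PF4 lie between 1.96 and 2.99, RASSF6 on one side and the genes from MTHFD2L to AREG on the other between 0.77 and 0.998, and the outermost genes BTC, COX18 and ANKRD17 at 0.21, 0.02 and -0.15.

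The rest of the chemokine system was sparse in these cells. Of 35 other chemokine ligands in the table, 18 had no count in any library and 4 were tested. Of these the edgeR test called 0, with PF4 higher at an unadjusted p-value under 0.05 (4.01% of all tested genes were). DESeq2 and limma-voom called 0. CCL28, an epithelial ligand of CCR10, had a log2 fold change of 0.53, and XCL1 and CXCL13, ligands of XCR1 and CXCR5, had -0.48 and -0.20.

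Of 23 chemokine receptors, 5 were tested and 8 had no count. CXCR2, the main receptor of CXCL1 to CXCL3, had 0 counts in 5 of 5 libraries, and CXCR1, which also binds CXCL8, had 1 count in total (both named after their values were seen). For the 5 tested genes each sgJUN#1 value lay below each NTC value, as for 12.8% of all tested genes. The edgeR test called 0 of them, with 1 lower at an unadjusted p-value under 0.05 (4.36% of all tested genes were). ACKR1, an atypical receptor that takes up chemokines of both families, measured 5.75, 8.92 and 26.95 CPM in NTC against 1.44 and 3.21 CPM in sgJUN#1 (log2 fold change -2.70, SE 0.779, adjusted p-value 0.352 by edgeR). It was called by DESeq2 (0.975% of all genes were called in either direction) but not by limma-voom. CXCR6, the receptor of CXCL16, ACKR2, a scavenger of CC chemokines, and CXCR5, the receptor of CXCL13, had log2 fold changes of -0.78, -0.62 and -0.51. CCR6, the receptor of CCL20, had -0.25, with 37.3, 47.5 and 41.8 CPM in NTC against 36.2 and 34.2 CPM in sgJUN#1. Overlapping genes were looked up for the members only, so these receptor counts may include reads of other genes.

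Cytokines that induce or accompany chemokines varied gene by gene. Of 22, 14 were tested, with a median log2 fold change of -0.03. The edgeR test called 0, with 3 higher and 2 lower at an unadjusted p-value under 0.05, against 4.01% and 4.36% of all tested genes. DESeq2 called CSF3 and IL1R1 (0.975% of all genes were called in either direction), and limma-voom called 0. CSF3, the growth factor of neutrophils, measured 39.5, 126.1 and 51.9 CPM in NTC against 148.7 and 244.5 CPM in sgJUN#1 (log2 fold change 1.45, SE 0.476). Its NTC replicate 2 was again the highest NTC library. IL1R1, the signalling receptor of interleukin-1, measured 20.0, 25.96 and 29.4 CPM in NTC against 43.2 and 69.1 CPM in sgJUN#1, with a log2 fold change of 1.15 (SE 0.271, adjusted p-value 0.213 by edgeR). IL1B was the third of the higher genes. TLR4, a receptor of bacterial lipopolysaccharide, had a log2 fold change of -4.69 (SE 1.35, adjusted p-value 0.340 by edgeR), the latter on 15, 1 and 33 counts in NTC and 0 and 1 in sgJUN#1, which are under the floor, so that the size of the fitted change depends on the prior count. Without NTC replicate 2, CSF3 and IL1B passed the edgeR threshold. NTC replicate 2 was the highest NTC library for both, so the limit given above for that fit applies. TNF, a strong inducer of these chemokines in epithelia, had 1 count in total and is named after its values were seen.

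All 17 genes for NF-kB subunits, their inhibitors and kinases, and C/EBP factors were tested, with a median log2 fold change of 0.08. The edgeR test called 0, and 0 were at an unadjusted p-value under 0.05, against 8.37% of all tested genes. TNFAIP3, an inhibitor of NF-kB signalling, measured 3.56, 34.5 and 15.0 CPM in NTC against 22.6 and 39.9 CPM in sgJUN#1. CEBPD had a log2 fold change of -0.88, NFKBIZ one of 0.59 and NFKBIB one of 0.49. Of the 8 tested AP-1 genes, edgeR called 0, with JUN and FOSL2 at an unadjusted p-value under 0.05 (8.37% of all tested genes were). FOSL2, FOS and FOSL1 had log2 fold changes of -1.001, -0.93 and 0.58. The 9 tested genes for proteins that bind or control AU-rich or stem-loop elements, through which chemokine mRNAs are degraded, had a median of -0.19. Of the 9, 2 were lower at an unadjusted p-value under 0.05 by edgeR, against 4.36% of all tested genes. The 2 were ZFP36 and ZFP36L2, with log2 fold changes of -0.62 and -0.52 and edgeR adjusted p-values of 0.589 and 0.596. RC3H1 and ZC3H12A had -0.37 and 0.24. DESeq2 and limma-voom called 0 of the NF-kB and decay genes, and JUN alone of the AP-1 genes. Over all genes they called 0.473% and 0.0588% higher.

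Of 10 genes that shed, cut or hold chemokines at the cell surface, 6 were tested, of median log2 fold change -0.06, with 0 calls by edgeR, DESeq2 or limma-voom. The syndecans SDC1 and SDC4, heparan sulfate proteoglycans that bind chemokines, were higher at an unadjusted p-value under 0.05 by edgeR, against 4.01% of all tested genes. SDC1 measured 27.9, 32.04 and 19.0 CPM in NTC against 53.9 and 43.1 CPM in sgJUN#1 (log2 fold change 0.90, SE 0.264, adjusted p-value 0.344 by edgeR), and SDC4 had 0.62 (SE 0.192, adjusted p-value 0.376 by edgeR). SDC2 had -0.73, and ADAM10, a sheddase of CXCL16, had -0.36.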

How the data were processed

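RNA was purified on columns, and QuantSeq 3' mRNA-Seq forward libraries were made. According to the study's methods, the authors trimmed reads with Cutadapt, aligned them to hg19 with Bowtie2 and counted them with countOverlaps in R (Cutadapt 4.2 and Bowtie2 2.3.5.1 per the submitters' processing notes). The study's methods give single-end reads of 75 bases for its other RNA libraries, and do not describe these libraries separately. The annotation, strand setting and use of molecular identifiers are not given in the sources used here, so PCR copies may count as separate reads. The deposited table holds unnormalised counts per gene. Symbols were found for 23308 of 23459 genes (99.36%) by Entrez identifier in a RefSeq table on GRCh38.p14, positions come from a GENCODE annotation on GRCh37, and promoter windows from RefSeq on GRCh38.p14.

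Groups were taken from the sample titles. Counts of all 5 libraries were tested with edgeR 4.0.16 in R 4.3.3 (TMM, filterByExpr, robust quasi-likelihood F test, group as the only term), and p-values were adjusted over all 13616 tested genes by the Benjamini-Hochberg method, with a threshold of 0.05. The SE was taken from the fold change and its F statistic. Alternatives were DESeq2 1.42.0 at default settings (the study's tool), limma-voom (limma 3.58.1), other scalings and filters, non-robust estimation, the replicate number as a block and leaving out each library. Named genes were the members, JUN, the called genes and at most 4 further tested genes of each list by size of change, and the 5 genes most like CXCL8. Members, lists and tests were chosen with earlier results of these data known. Protein sequences were not used here.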

Additional observations from a re-analysis of the deposited data

How the results depend on the processing

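Of 95 values of the 7 tested members over 14 alternative fits, 91 kept their direction and their side of the threshold. CXCL2, CXCL3 and CXCL8 passed without NTC replicate 2, and CCL20 ran from -0.21 without sgJUN#1 replicate 2 to 1.02 without replicate 1. The number of members called was 0 in the other fits and 0 to 3 when single libraries were left out. Over all genes, 28 calls became 136 with DESeq2, 148 with no filter, 18 under a filter of 10 counts in each library, and 10 to 57 without single libraries (10, 56 and 57 without NTC replicates 1, 2 and 3). The cause was not tested. JUN passed with DESeq2 (log2 fold change 3.24), limma-voom (3.47) and non-robust estimation (3.25), and ran from 2.84 to 3.68 without single libraries, passing without NTC replicate 2 or 3 (adjusted p-values by edgeR 0.0145 and 0.00122). Left with 1 sgJUN#1 library, a fit assumes that it varies like NTC.

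No label says that a replicate number marks a shared day. The study states no pairing, so the libraries were treated as unpaired. Over all tested genes, the differences of replicates 1 and 2 in NTC and in sgJUN#1 had a correlation of 0.0146. That value does not settle pairing for single genes. Replicate 2 was above replicate 1 in both groups for JUN, CXCL1, CXCL2, CXCL3, CCL20 and CXCL14, and below it in both for CXCL16. CXCL8 was higher in NTC replicate 2 but nearly level in sgJUN#1. NTC and sgJUN#1 libraries of equal replicate number have consecutive identifiers, which the sources do not explain. With the replicate block, which leaves 1 degree of freedom, 106 genes were called, JUN passed with a log2 fold change of 2.82, and 0 members passed, with CXCL8 at 3.30.

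At this depth CXCL14 rested on 7 to 20 counts a library, and CXCL3 on 5 in NTC replicate 1. The alternatives for the median of the genes near the cluster were chosen after seeing the data.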
